A study of Mus musculus with 6 samples.

Results

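Described here are the regions of open chromatin that mouse CD4 T cells had at both 48 h and 72 h of Th17 culture, lacked as naive cells, and carried inside protein-coding genes. Merging peaks of the naive, Th17 48 h and Th17 72 h lists wherever they shared 1 bp or more gave 81315 regions. Members were chosen by the authors' peak calls and by position: a region belonged to the set when it held a 48 h peak and a 72 h peak and no naive peak, and when its middle lay in a protein-coding gene body and over 1 kb from every protein-coding gene end. The rule kept 5372 regions, called gained regions here. They made up 14.6% of the 36695 regions inside genes, and over all regions, wherever they lay, 13.1% had the same pattern of peaks. These shares follow from that choice and are not a result. "Gained" refers to the lists: a missing naive peak shows that no peak was called there, not that the chromatin was closed.

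The cells were from C57BL/6 mice and are labelled as wild type. Naive CD4 T cells were left untreated, and Th17 cells were grown from them for 48 h or 72 h on plates with 0.25 μg/mL antibody to CD3ε and 1 μg/mL antibody to CD28, with 0.1 ng/mL TGF-β and 20 ng/mL IL-6, per the labels. The assay was ATAC-seq, with 2 libraries of each condition, and reads out where the enzyme Tn5 can reach and cut the DNA of chromatin. A single peak list per condition was analysed, so no comparison has a replicate check and none was tested. The naive list held 53259 peaks, the 48 h list 40624 and the 72 h list 53926. Read depth is unknown. The cells were measured in bulk, so a site open in few cells and a site weakly open in many cannot be told apart, and the cultures differ from naive cells in stimulation, cytokines and time in culture at once.

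Th17 cells are helper T cells that make IL-17A and IL-17F and depend on nuclear receptors such as RORα. Stimulation through the T cell receptor and CD28 activates AP-1 factors, dimers of FOS, JUN and BATF proteins, and IL-6 acts through STAT3. Many sites that open when T cells differentiate are enhancers, short stretches of DNA that bind such factors and act on genes from a distance, often from within introns. The annotation used here gives neither introns nor exons, so a gained region is placed in a gene body without further detail, and the gene that holds it need not be the gene it acts on.

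A reference sequence was at hand for gained regions that overlapped the window around an annotated transcription start inside a gene, such as the start of a shorter transcript. Of the 5372 gained regions, 114 (2.12%, exact 95% interval 1.75 to 2.54%) overlapped a RefSeq promoter window, which runs from 250 bases before to 50 bases after a start on GRCm38.p6. In 83 of these the window belonged to the gene that held the region, and in 35 to a long non-coding RNA. The 6 windows of host genes with the highest 72 h score, among those with at least 150 bp under the region, are given here by the 250 bases before the start, because the AP-1 result rests on such windows. Capitals mark matches to the AP-1 motif TGANTCA, read on either strand.
Adgrg1, chr8:94984149-94984398, plus strand: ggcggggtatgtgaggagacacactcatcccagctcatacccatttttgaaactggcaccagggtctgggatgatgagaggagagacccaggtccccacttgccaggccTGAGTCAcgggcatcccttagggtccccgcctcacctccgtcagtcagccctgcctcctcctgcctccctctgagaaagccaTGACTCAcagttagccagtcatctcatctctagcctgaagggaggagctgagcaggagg
Cdc42bpb, chr12:111377719-111377968, minus strand: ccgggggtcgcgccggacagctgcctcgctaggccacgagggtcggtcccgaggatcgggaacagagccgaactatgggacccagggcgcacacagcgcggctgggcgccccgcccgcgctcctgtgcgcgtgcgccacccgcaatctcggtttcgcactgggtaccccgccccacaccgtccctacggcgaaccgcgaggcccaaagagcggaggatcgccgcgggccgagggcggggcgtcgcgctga
Acot7, chr4:152185358-152185607, plus strand: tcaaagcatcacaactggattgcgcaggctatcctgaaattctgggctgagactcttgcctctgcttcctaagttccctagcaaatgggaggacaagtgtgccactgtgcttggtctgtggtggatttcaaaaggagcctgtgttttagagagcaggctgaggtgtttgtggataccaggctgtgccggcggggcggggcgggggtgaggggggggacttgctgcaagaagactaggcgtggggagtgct
Smim14, chr5:65484062-65484311, minus strand: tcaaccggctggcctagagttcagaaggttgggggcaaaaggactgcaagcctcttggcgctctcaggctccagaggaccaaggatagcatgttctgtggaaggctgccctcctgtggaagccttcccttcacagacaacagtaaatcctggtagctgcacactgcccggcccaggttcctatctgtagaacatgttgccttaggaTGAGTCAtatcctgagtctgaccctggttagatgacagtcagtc
Ksr1, chr11:79059837-79060086, minus strand: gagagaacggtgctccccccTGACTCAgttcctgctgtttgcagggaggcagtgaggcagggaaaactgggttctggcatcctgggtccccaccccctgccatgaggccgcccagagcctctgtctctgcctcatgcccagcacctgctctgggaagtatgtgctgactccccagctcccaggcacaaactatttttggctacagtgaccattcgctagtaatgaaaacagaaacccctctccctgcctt
Cd80, chr16:38458683-38458932, plus strand: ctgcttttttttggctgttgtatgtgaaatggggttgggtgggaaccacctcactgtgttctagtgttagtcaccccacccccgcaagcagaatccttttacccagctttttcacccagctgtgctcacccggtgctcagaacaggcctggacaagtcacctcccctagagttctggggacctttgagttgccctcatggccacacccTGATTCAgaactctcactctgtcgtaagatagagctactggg
Adgrg1, an adhesion receptor, holds 2 matches, which begin at bases -141 and -59 from the start. Smim14, Ksr1 and Cd80 hold 1 each, at -44, -230 and -42. No such letters stand in the 250 bases of Cdc42bpb, a kinase that acts with the small GTPase CDC42, or of Acot7, a thioesterase of fatty acid metabolism.

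The peak score, as the authors deposited it, describes these 6 regions further. The Adgrg1 region (94984079 to 94984488 on chromosome 8) had a score of 306 at 72 h and 199 at 48 h. The region at Cdc42bpb scored 235 at 72 h and 124 at 48 h, and that at Acot7 230 at 72 h and 168 at 48 h. Smim14 had 203 at 72 h and 158 at 48 h, Ksr1, a scaffold of the MAP kinase cascade, 188 at 72 h and 123 at 48 h, and Cd80, a ligand of CD28 and CTLA-4, 176 at 72 h and 120 at 48 h. All 6 lay above the median score of each list, which was 76 at 72 h and 69 at 48 h. They were picked by their 72 h score, so at 72 h this follows from the choice. The scale of the score is not stated in the sources used here, so values of different lists are set side by side and not compared. Where a region held several peaks of a list, the highest score was taken.

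The 6 windows differed in base composition. The Cdc42bpb window held 48 CG dinucleotides and 75.7% G and C, as CpG island promoters do. The Adgrg1 and Acot7 windows held 6 each, Smim14 held 5, Ksr1 4 and Cd80 3. Over all 75 windows with at least 150 bp under a gained region, the median was 18 CG dinucleotides and 63.7% G and C, against 7 and 52.0% in 84 windows under naive-only regions inside genes and 22 and 63.3% in 1387 windows under regions inside genes that were present in all 3 conditions. Gained regions thus lay over both CpG-rich and CpG-poor promoter windows.

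The AP-1 motif was matched in more of these windows than in those of the other classes. It was found in 21 of the 75 windows under gained regions (28.0%, exact 95% interval 18.2 to 39.6%), in 6 of 84 under naive-only regions (7.14%, 2.67 to 14.9%) and in 67 of 1387 under regions present in all 3 conditions (4.83%, 3.76 to 6.09%). Of all 32851 promoter windows, which have the same length, 7.81% held it, as did 8.29% of the 6612 windows that lie inside genes and over 1 kb from gene ends. Windows under regions seen at 72 h only, 44 in number, held it in 11.4% (3.79 to 24.6%). Intervals cover counting error only, and windows of neighbouring starts can share bases. With 1 window kept per region the shares were 27.5% of 69 under gained regions, 7.69% of 78 under naive-only regions and 5.25% of 1124 under regions present in all 3 conditions. The same motif stood in 38 of 320 windows under regions near gene ends with the gained pattern of peaks (11.9%, 8.54 to 15.9%), against 5.76% of 139 under naive-only regions there and 3.6% of 8984 under regions present in all 3 conditions. The share depended on the settings, which were chosen for this motif after seeing the data. With any overlap of region and window it was 20.6% under gained regions (26 of 126), 6.67% under naive-only regions (11 of 165), 12.3% under 72 h only regions (14 of 114) and 5.03% under regions present in all 3 conditions (75 of 1492), and the intervals of the gained regions (13.9 to 28.8%) and the 72 h only regions (6.88 to 19.7%) overlapped, as they did with at least 150 bp covered. With the widest peaks of each list, cut to lists of equal length, it was 22.4% under gained regions (22 of 98; 14.6 to 32.0%), 8.08% under naive-only regions (8 of 99; 3.55 to 15.3%) and 4.84% under regions present in all 3 conditions. With only 48 h and 72 h peaks at or above their median score kept, it was 48.1% under gained regions (13 of 27; 28.7 to 68.1%), 5.65% under naive-only regions (13 of 230) and 4.5% under regions present in all 3 conditions. The naive list was not filtered here. The naive-only class, with 230 windows against 84 before, thus includes regions whose weaker 48 h or 72 h peaks were dropped. A match is a description of letters and does not show that a factor was bound.

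For the other 7 motifs the intervals under gained and naive-only regions overlapped. The letters AGGTCA, read by ROR factors and other nuclear receptors, were in 18.7% of the windows under gained regions (10.6 to 29.3%) and in 16.3% of all windows. The ETS letters GGAAGT were in 18.7% (10.6 to 29.3%) of windows under gained regions, against 33.3% (23.4 to 44.5%) under naive-only regions, and the TCF/LEF letters CTTTGA in 13.3% (6.58 to 23.2%) against 23.8% (15.2 to 34.3%). The RUNX letters TGTGGT were in 18.7% against 26.2% under naive-only regions. The STAT pattern TTCNNNGAA was in 2 of 75 windows (2.67%, 0.325 to 9.30%), against 8.30% of all windows, the E-box CACGTG in 2.67% and the GATA letters AGATAA in 4.0%. Motifs were searched on both strands over the whole window, and AP-1 was singled out after the 8 shares were seen.

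**Figure D1:**
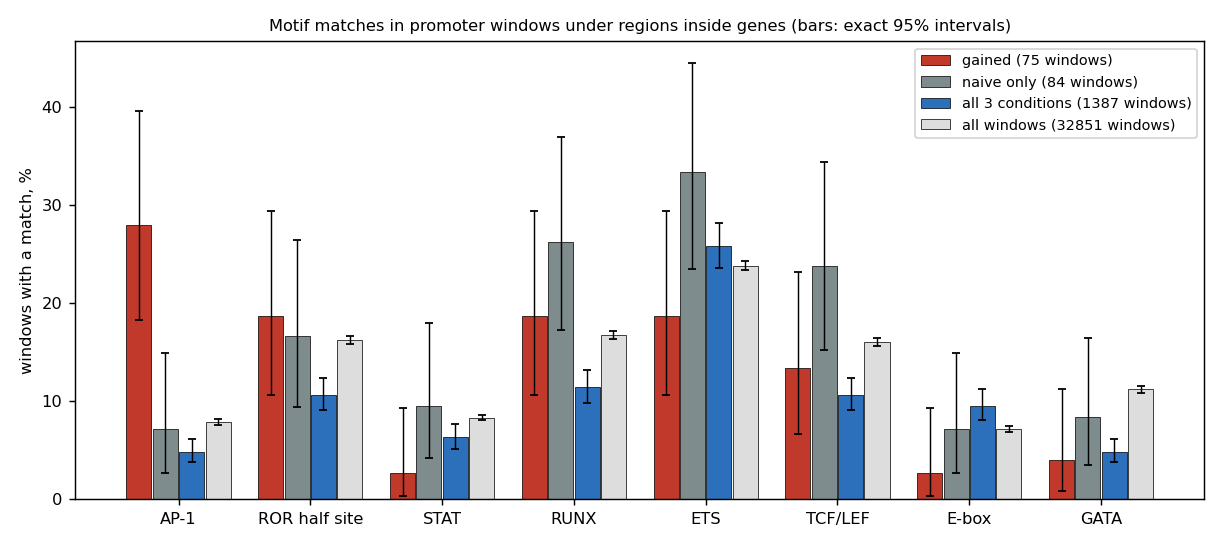
Share of 300-base promoter windows (vertical axis, %) that hold each of 8 motifs, for windows with at least 150 bp under gained, naive-only and constantly present regions inside genes and for all windows; bars are exact 95% intervals. AP-1 stands at 28.0% under gained regions, against 7.14% under naive-only regions and 4.83% under regions present in all 3 conditions, and for each of the other 7 motifs the interval under gained regions overlaps that under naive-only regions.

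MicroRNA hairpins lay under 3 of the 5372 gained regions. They also lay under naive-only regions, 72 h only regions and regions present in all 3 conditions inside genes, so they were not particular to gained regions. For the 2 gained regions with the higher scores, the mature sequences are given with the seed (bases 2 to 8) in capitals. The seed sets which transcripts a microRNA can bind. The X chromosome region inside Chm, from 113074791 to 113075180, scored 344 at 72 h and 180 at 48 h and covers the whole hairpin of Mir361 (113074824 to 113074893, minus strand). The region inside Prkci, which encodes an atypical protein kinase C, spans 31038749 to 31039112 on chromosome 3, scored 172 at 72 h and 93 at 48 h, and covers the whole hairpin of Mir7008.
miR-361-5p: uUAUCAGAaucuccagggguac
miR-361-3p: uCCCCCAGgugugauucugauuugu
miR-7008-5p: uGUGGGAGaugccaggagccguac
miR-7008-3p: uGUGCUUCuugccucuucucag
The 4 seeds differ from each other. The third hairpin, Mir8090, lies under a region inside Cfap43 that scored 46 at 72 h and 44 at 48 h. Whether these microRNAs were transcribed was not measured.

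Among themselves the gained regions covered a wide range of scores. At 72 h the lowest score was 30, the lower quartile 58, the median 91, the upper quartile 141 and the highest 464. At 48 h these were 30, 46, 64, 97 and 312. Of the 5372, 3260 (60.7%, 59.4 to 62.0%) stood at or above the median of the whole 72 h list and 2490 (46.4%, 45.0 to 47.7%) at or above that of the 48 h list, and 609 (11.3%) were in the top quartile of both lists. The same 2 shares were 62.7% at 72 h and 49.97% at 48 h for gained regions between genes, 49.9% and 33.1% for those near gene ends, and 67.0% and 56.8% for regions inside genes that were present in all 3 conditions. Regions inside genes seen at 72 h only reached the 72 h median in 21.0%. The rule asked for a peak in both lists, so the gap to the 72 h only regions is a description of how the classes were chosen. Across the 5221 gained regions with 1 peak in each list, the scores at 72 h and 48 h had a Spearman rank correlation of 0.52, against 0.67 over 5427 regions inside genes that were present in all 3 conditions. The points of each class come from the same libraries.

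**Figure D2:**
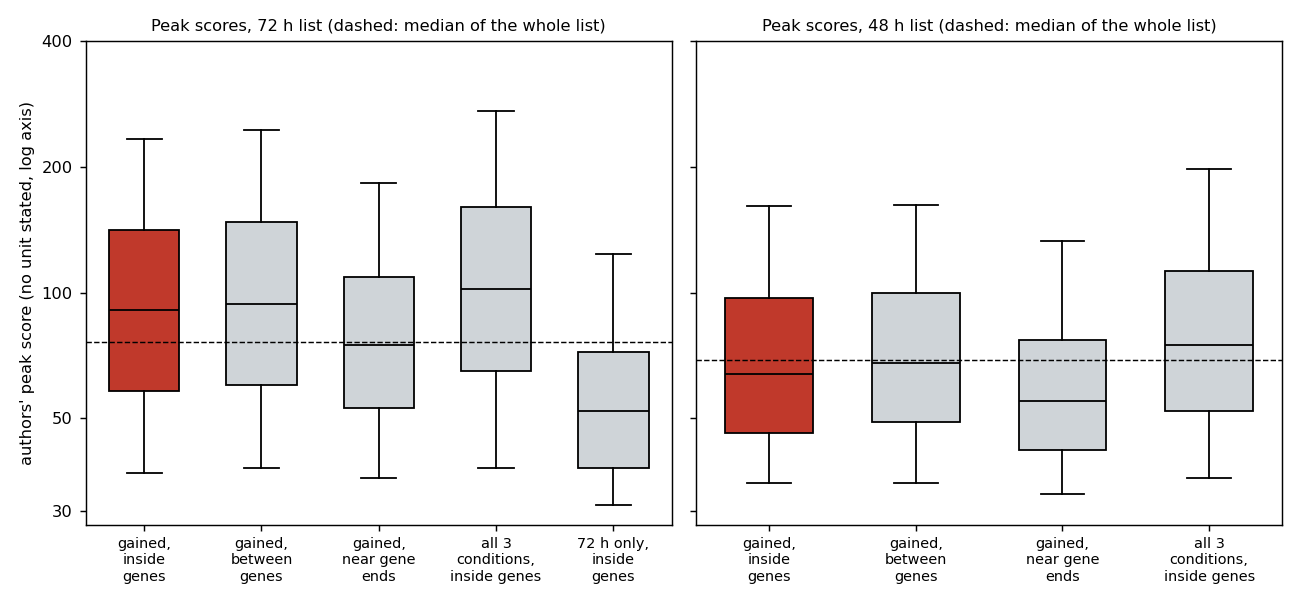
Peak scores as deposited (log axis, no unit stated) in the 72 h list and the 48 h list for gained regions inside genes and the classes they are set beside; boxes are quartiles, whiskers the 5th and 95th percentiles, and dashed lines the median of the whole list. Gained regions inside genes have a median of 91 at 72 h and 64 at 48 h, close to gained regions between genes and above regions inside genes seen at 72 h only, whose median is 52.

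The width of the peaks was larger at 72 h for most members. Of the 5221 with 1 peak in each list, 3234 (61.9%, 60.6 to 63.3%) had the wider peak at 72 h, 1959 at 48 h, and 28 were equal, with a median difference of 27 bp for 72 h minus 48 h. The median width was 250 bp at 72 h and 213 bp at 48 h. Of regions inside genes that were present in all 3 conditions, 67.6% (66.3 to 68.8%) were wider at 72 h, with a median difference of 41 bp. Read depth, which is unknown, was not accounted for. The merged gained regions had a median width of 294 bp, against 194 bp for naive-only regions and 470 bp for regions present in all 3 conditions, all inside genes.

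The 12 gained regions with the highest 72 h score lay in 12 genes. The strongest was inside Filip1 on chromosome 9, from 79947272 to 79947764, at 464 in the 72 h list. Its 48 h score was 97, at or above 68.5% of that list, and its peak was 493 bp wide at 72 h and 229 bp at 48 h. Sgce, a sarcoglycan gene, followed with 460 at 72 h and 312 at 48 h (chromosome 6, 4708929 to 4709437), and 312 was the highest 48 h score of any member. Mfap5, which encodes a microfibril protein, had 452 at 72 h and 240 at 48 h. Rasal2, a RAS GTPase activator, had 421 and 235 in that order, and Zbtb20, a zinc finger repressor, 407 and 287. Pde1a, a calcium- and calmodulin-dependent phosphodiesterase of cyclic nucleotides, had 407 at 72 h and 173 at 48 h. The remaining 6 scored 388 to 406 at 72 h and lay inside Ttc27, Ddx11, a DNA helicase, Ptpre, a tyrosine phosphatase, Kif16b, a kinesin, Net1, a guanine nucleotide exchange factor, and Hs2st1, a heparan sulfate sulfotransferase. Net1 scored 117 at 48 h, so it and Filip1 were the members of the 12 with the lowest 48 h scores.

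Membership at the 1 kb limit turned on small distances. The closest member lay 1001.5 bp from a gene end, in the overlap of Patl2 and Trim69 (score 133 at 72 h and 138 at 48 h), and others at 1004 bp in Cep295 and 1010.5 bp in Hk2, a hexokinase. Just outside were regions at 996 bp in Ascl2, a factor of follicular helper T cells (33 at 72 h and 44 at 48 h), and at 995.5 bp in Sgms2 (270 at 72 h and 147 at 48 h).

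Gained regions were spread over 3242 protein-coding genes, 34.3% of the 9464 that held any region inside. A total of 2085 genes held 1 gained region, 676 held 2, 225 held 3, 122 held 4 and 134 held at least 5. Those 134 genes, with a median length of 242 kb against 71.4 kb for all host genes, held 842 gained regions (15.7%). A region was placed in 1 gene in 5310 cases and in several overlapping genes in 62. By chromosome, the share of gained regions among those inside genes ran from 10.3% on chromosome 15 (8.82 to 11.9%) to 17.2% on chromosome 1 (15.7 to 18.7%) among the autosomes, and was 11.2% on the X (9.05 to 13.8%).

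Atxn1, which encodes a chromatin-binding factor that acts with the repressor CIC, held 16 gained regions, the most of any gene, in 415 kb on chromosome 13 (45549755 to 45964991), with 72 h scores from 31 to 187 and a median of 75. It held 2 naive-only regions. Inpp4b, a phosphoinositide phosphatase, held 12 gained and 22 naive-only regions in 792 kb, and 1 of the gained reached 338 at 72 h and 202 at 48 h (chromosome 8, 81867028 to 81867375). Itpr1, the IP3 receptor that releases calcium from the endoplasmic reticulum, held 11 gained and 13 naive-only regions, with a median 72 h score of 150, the highest median of the 12 genes with most gained regions. Elmo1, which acts with DOCK proteins on RAC, held 11 gained and 10 naive-only.

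These 12 genes differed in how many naive-only regions stood beside the gained ones. Runx2 held 10 gained and 2 naive-only, Hivep3, a large zinc finger factor, 10 gained and 2 naive-only, and Sgip1, an endocytosis adaptor, 10 gained and 1 naive-only. Lpp, an adhesion protein, held 10 gained and 19 naive-only, Tg, which encodes thyroglobulin, 10 gained and 13 naive-only, Bach2, a repressor of effector genes, 9 gained and 26 naive-only, and Etv6, an ETS repressor, 9 gained and 7 naive-only. Rora completed the 12. Some of the gained regions in Tg also lie inside Sla, a gene that overlaps it. That from 66795331 to 66795968 on chromosome 15, which scored 115 at 72 h and 165 at 48 h, is among them. Over all 3242 host genes, 1817 (56.0%) also held a naive-only region, 1729 held more gained than naive-only regions, 942 fewer and 571 equal numbers. Host genes hold at least 1 gained region by definition, which tilts these counts toward gained regions. Over the 21900 protein-coding genes, 1729 held more gained than naive-only regions and 4034 fewer.

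**Figure D3:**
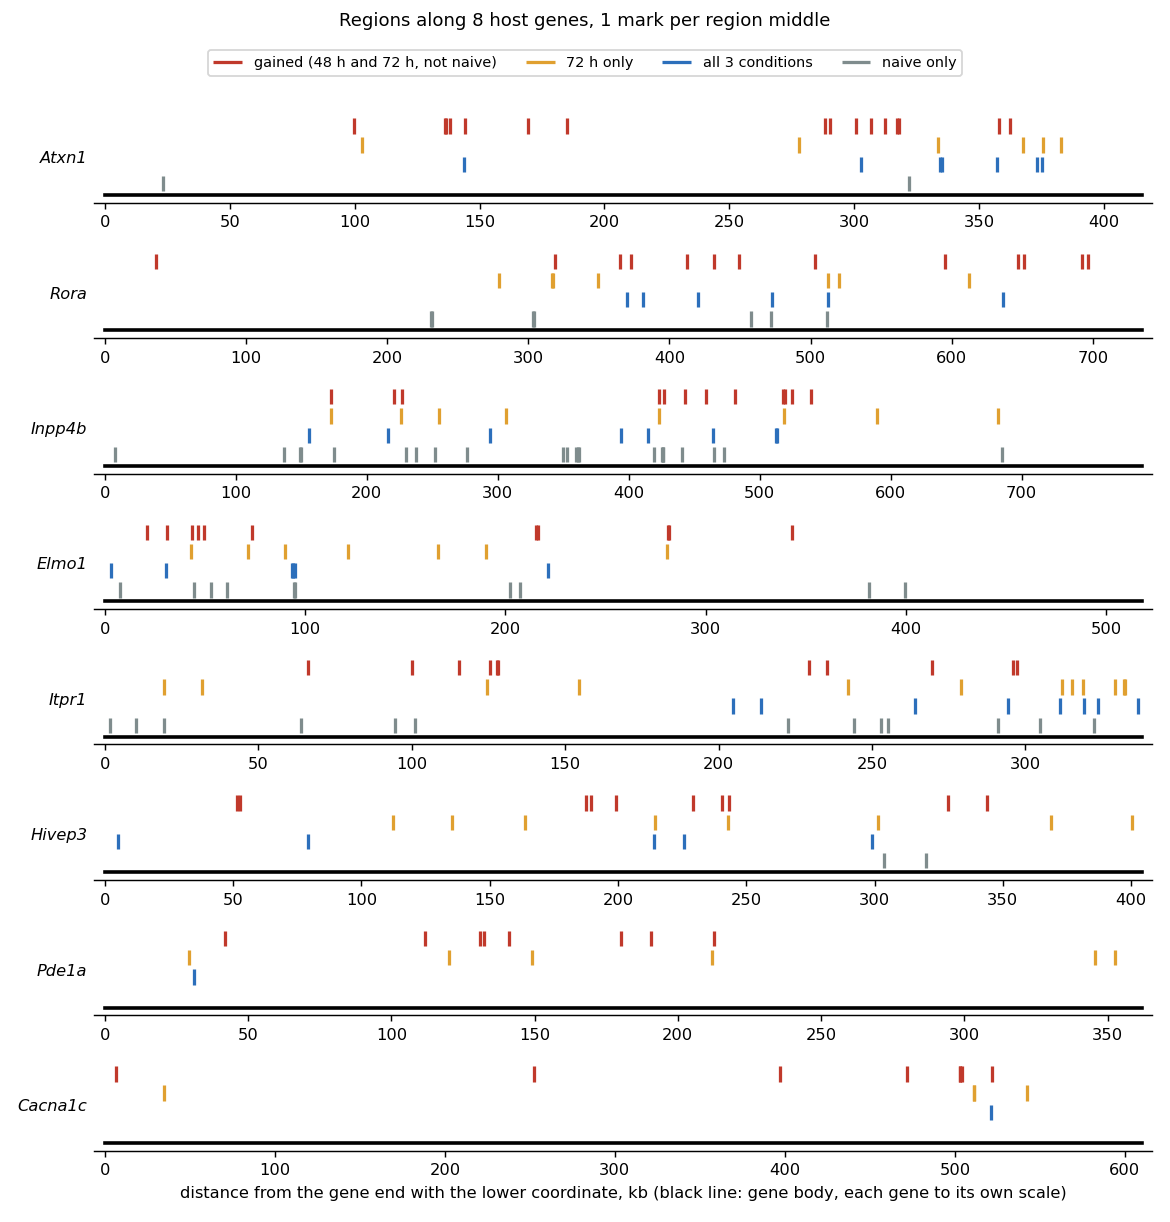
Middles of gained, 72 h only, constantly present and naive-only regions along 8 genes, by distance in kb from the gene end with the lower coordinate; regions of the other 3 classes are not drawn and each gene has its own scale. Gained regions outnumber naive-only ones 16 to 2 in Atxn1 and 13 to 7 in Rora, stand beside 22 naive-only regions in Inpp4b, and are accompanied by none in Pde1a and Cacna1c.

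In some host genes no region inside and over 1 kb from gene ends held a naive peak. There were 955 (29.5%) of these. Naive peaks near the gene ends were not counted, and the same share over all genes was not computed. Among them, Zfp469 held 6 gained regions. Among genes without a naive-only region, Cacna1c, the pore subunit of an L-type calcium channel, and Pde1a held 8 gained regions each and 1 region present in all 3 conditions. Kcnk10, a two-pore potassium channel, and Ppfibp1, a liprin, held 7 each. In Pde1a the gained regions scored 81 to 407 at 72 h and 44 to 173 at 48 h, and in Cacna1c 37 to 137 at 72 h and 39 to 143 at 48 h. Per length of gene body, the densest hosts with at least 5 gained regions were Ptpn1, the tyrosine phosphatase PTP1B, at 10.3 per 100 kb, Fgd3, an exchange factor for CDC42, at 10.2, Dapp1, an adaptor that binds PI3K products, at 9.89, Ptpn5, another tyrosine phosphatase, at 8.89, Mdfic at 8.58 and Cpd, a carboxypeptidase, at 7.16. Atxn1 had 3.85 and Rora 1.77 per 100 kb.

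Genes of the Th17 lineage held 28 gained regions among the 97 inside them (28.9%, 20.1 to 39.0%), beside 14.6% over all genes. Of the 18 genes, 9 held at least 1, 7 held more gained than naive-only regions and 2 fewer. Naive-only regions were 18 of the 97 (18.6%), beside 32.5% over all genes. Such shares were not particular to this list. Genes of unrelated tissues, with 45 regions, had 24.4% gained and 20.0% naive only, and the Th2 list, with 25 regions, 24.0% and 20.0%. The naive and quiescent list went the other way, with 11.2% gained and 47.0% naive only. Rora, the gene of RORα, carried 13 of the 28. Without it 15 of 55 regions were gained (27.3%, 16.1 to 41.0%). With only 48 h and 72 h peaks at or above their median score kept, the share was 17.6% in the Th17 lineage list and 7.24% over all genes. The lists of genes were written with earlier results of these data known, so these shares are no independent evidence.

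In Rora (chromosome 9, 68653404 to 69388246) the 13 gained regions scored 31 to 218 at 72 h, with a median of 99, and 37 to 133 at 48 h, with a median of 71. The strongest, from 69155849 to 69156894, was also the widest at 1046 bp and scored 218 at 72 h and 116 at 48 h. Of the 13, 12 lay in the part of the gene from 68972353 to 69349825, and the other at 68689519 to 68689697 scored 31 at 72 h and 37 at 48 h.

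Among members inside these 18 genes the highest 72 h score was in a receptor gene. Il23r, the receptor chain for IL-23, held gained regions from 67459391 to 67459697 and from 67483048 to 67483602 on chromosome 6. The first scored 321 at 72 h and 221 at 48 h and the second 195 at 72 h and 110 at 48 h. The gene also held 5 naive-only regions. Il1r1, the receptor for IL-1, held 3 gained regions, with 72 h scores of 137, 116 and 47, and no naive-only region. Ccr6, the chemokine receptor of Th17 cells, held 1, which scored 32 at 72 h and 65 at 48 h.

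Among the factors, Stat3 held 2 gained regions, of which that from 100921346 to 100921727 on chromosome 11 scored 181 at 72 h and 190 at 48 h, and Batf held 1 with 46 at 72 h and 63 at 48 h. Of the cytokine genes, Il21 held 1 (88 at 72 h and 58 at 48 h) and Il10 held 1 (56 at 72 h and 84 at 48 h). Il17a, Il17f, Il22, Maf, Ahr, Hif1a, Irf4, Ccl20 and Il17re held none inside and over 1 kb from their ends. Genes as short as Il17a leave little room for such a region.

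The neighbours of Il1r1 on chromosome 1 belong to other lists. Il1rl1, the receptor for IL-33, which marks Th2 and some regulatory T cells, lies at 40404864 to 40465418 and held 3 gained regions. That from 40444638 to 40445217 scored 340 at 72 h and 274 at 48 h, higher at 72 h than any member in the Th17 lineage genes. Il18rap, a chain of the IL-18 receptor, held 1 with 110 at 72 h and 105 at 48 h. Il1rl1 and Il18rap also held 1 naive-only region each. Il18r1, which lies between them, held 0 gained and 4 naive-only regions. On chromosome 6, Il12rb2, a chain of the IL-12 receptor and the neighbour of Il23r, held 4 gained and 4 naive-only regions, with 72 h scores of 119, 67, 44 and 202. Rad50, a DNA repair gene that contains the locus control region for Il4, Il5 and Il13, held 3 gained and no naive-only region, with 72 h scores of 121, 52 and 100.

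The intervals of the other helper T cell lists all spanned the 14.6% over all genes. The Th2 list had 6 gained of 25 regions (24.0%, 9.36 to 45.1%), all in Il1rl1 and Rad50, the Th1 list 7 of 60 (11.7%, 4.82 to 22.6%) and the Tfh list 7 of 69 (10.1%, 4.18 to 19.8%), with 2 in Tox and 1 each in 5 other genes. The naive and quiescent T cell genes had 34 gained of 304 (11.2%, 7.87 to 15.3%) and 143 naive-only (47.0%). In this list 1 of 18 genes held more gained than naive-only regions and 14 fewer. Foxp1, a factor of quiescence, held 7 gained and 46 naive-only, Ets1 held 4 and 13, and Lef1, a TCF-family factor, 3 and 14, in that order. The T cell activation genes had 16 of 103 (15.5%, 9.15 to 24.0%), with 5 in Nfkb1 and 3 in Nfatc1, and the pan T cell genes 13 of 102 (12.7%, 6.96 to 20.8%), with 2 in Cd247, which encodes CD3ζ.

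For pathways that the culture stimulates the intervals also spanned 14.6%. The TGF-β and regulatory T cell list had 33 gained of 178 regions (18.5%, 13.1 to 25.04%) and 82 naive-only (46.1%). Ldlrad4, an inhibitor of TGF-β signalling, held 7 gained and 12 naive-only, Smad3, a signal transducer, 6 and 8, Nrp1, a co-receptor, 4 and 11, and Tgfbr3 4 and 16, in that order. The IL-6 and STAT3 pathway had 14 of 76 (18.4%, 10.5 to 29.0%), with 5 in Jak1 and 4 in the phosphatase gene Ptpn2. Genes of BATF, IRF and AP-1 proteins had 4 gained of 29 (13.8%, 3.89 to 31.7%), 1 each in Batf, Batf3, Fosl1 and Irf2. The single region inside Fosl1 was a gained one, with 76 at 72 h and 62 at 48 h.

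Besides the Th17 lineage, 3 lists had intervals that lay above the 14.6% over all genes. Genes of adhesion, integrins and small GTPase signalling had 65 gained of 293 regions (22.2%, 17.6 to 27.4%), and 16 of 18 genes held at least 1. Beside Elmo1, Dock10 held 8, Arhgef3 and Tiam1, guanine nucleotide exchange factors, 6 each, and Itgav, the integrin αV chain, 4 with no naive-only region. The RUNX, ETS and NFAT factors had 49 of 226 (21.7%, 16.5 to 27.6%), with 10 in Runx2, 9 in Etv6, 7 in Runx1 and 6 in Nfatc2, and Nfatc1 stands in this list and in the activation list. The chromatin and DNA methylation factors had 50 of 240 (20.8%, 15.9 to 26.5%), but 16 of these lay in Atxn1. Others in that list were Zbtb20 with 8, Hdac4 with 6 and Tet2, a DNA demethylase, with 4. Atxn1 held 16 gained among 35 regions of all classes and Runx2 10 among 25. The shares were not recomputed without such genes, so how far the lists stand above 14.6% because of single genes is not known.

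Signalling and growth lists had intervals that spanned 14.6%. The phosphoinositide genes had 43 gained of 259 regions (16.6%, 12.3 to 21.7%), led by Inpp4b with 12, Prkca with 6 and Phlpp1 with 5. The cAMP and calcium genes had 51 of 328 (15.5%, 11.8 to 19.9%), led by Itpr1 with 11, Pde1a and Pde4b with 8 each and Pde4d with 6, and their gained regions had a median 72 h score of 131, against 91 for all members. The growth and proliferation genes had 17 of 90 (18.9%, 11.4 to 28.5%). Of those, 7 lay in Cdk6, a cell cycle kinase, with 72 h scores from 30 to 224.

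The members inside single genes of these lists differed widely in score. In Cdk6 the 7 gained regions scored 153, 55, 224, 135, 107, 193 and 30 at 72 h in order of position, with 38 to 138 at 48 h, and the last 5 form a run of 18.4 kb. The 4 in Tet2 scored 129, 100, 90 and 226 at 72 h and 37, 37, 121 and 109 at 48 h, so the first pair stood low in the 48 h list and above the median of the 72 h list. The 2 in Cd247 scored 154 and 238 at 72 h, while those of Themis, a T cell signalling gene, reached 110. In Pde4b, a cAMP phosphodiesterase, scores ran from 55 to 243 at 72 h and from 32 to 264 at 48 h, and in Hdac4, a histone deacetylase, from 78 to 201 at 72 h and from 46 to 156 at 48 h. The 7 in Ldlrad4 ran from 63 to 289 at 72 h and from 52 to 183 at 48 h. By contrast, the 2 in Il2ra, the IL-2 receptor α chain, scored 33 and 47 at 72 h, both below the median of the 72 h list.

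**Figure D4:**
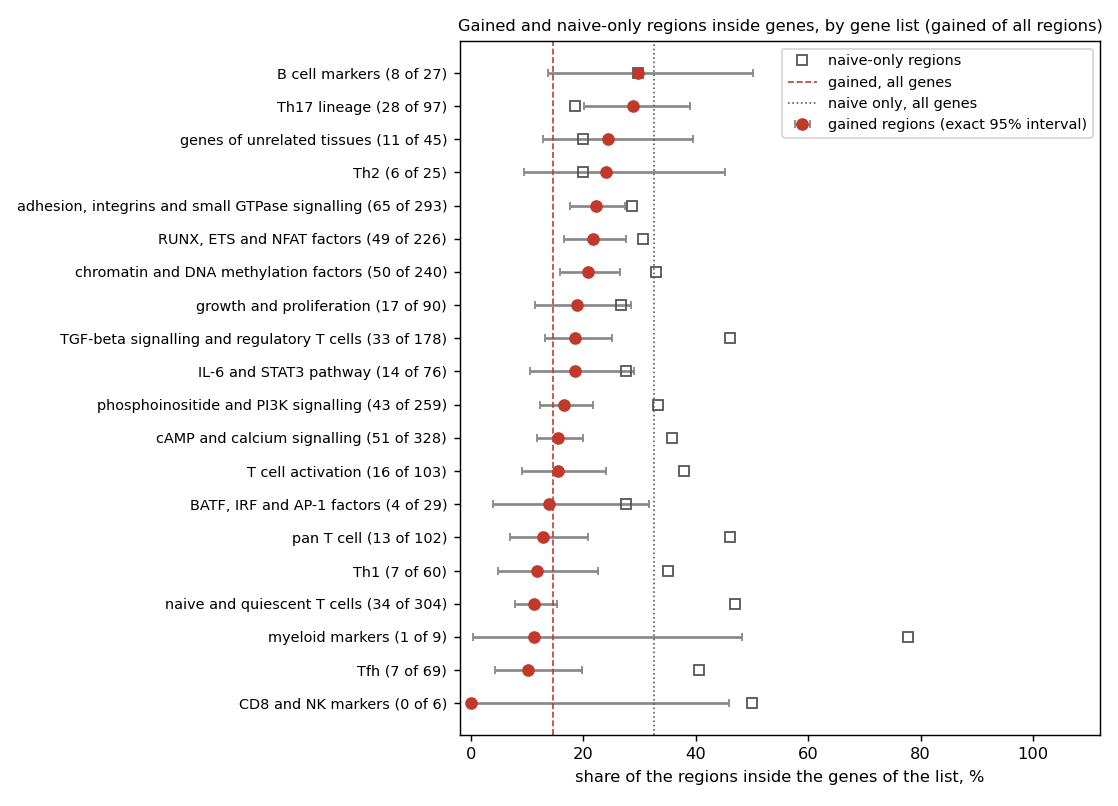
Share of the regions inside the genes of each of 20 lists that were gained (filled points, exact 95% intervals) or naive only (open squares), with the shares over all genes as vertical lines at 14.6% and 32.5%. The Th17 lineage list stands at 28.9% gained and 18.6% naive only, and the naive and quiescent list at 11.2% gained and 47.0% naive only. The B cell markers stand at 29.6% gained (13.8 to 50.2%). Intervals span the line for all genes in every list but the Th17 lineage, adhesion, RUNX and chromatin lists.

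Markers of other cells were checked with the same lists. All 16 pan T cell genes had a region in or within 10 kb of the gene in each of the naive, 48 h and 72 h lists. In that order they had 142, 88 and 109 regions in all, and the Th17 lineage genes 68, 84 and 110. Of the B cell markers, 9 of 10 had a region in naive cells, 8 at 48 h and 9 at 72 h, with 28, 22 and 36 regions in all. Ms4a1, which encodes CD20, had none in any list. Of these regions Ebf1 had 4, 8 and 17 in that order. Among the other B cell markers only Pax5 had more at 72 h (3) than in naive cells (1). Inside the B cell marker genes 8 of 27 regions were gained (29.6%, 13.8 to 50.2%), 6 of them in Ebf1, a B cell factor in a 390 kb gene, and 2 in Pax5. Without Ebf1 the count was 2 of 12. The myeloid markers had 1 gained of 9, in Itgam, and Csf1r, Lyz2 and Adgre1 had no region in any list. Their summed regions were 24, 11 and 15 in naive cells, at 48 h and at 72 h. The CD8 and NK markers had 0 of 6 regions gained, which allows up to 45.9%, and 23, 14 and 21 regions over the 3 lists in that order. Genes of unrelated tissues had 11 of 45 (24.4%, 12.9 to 39.5%), of which 8 lay in Dlg2, a synaptic scaffold gene of 1973 kb. The part of other cells in the gained regions was not tested.

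Gained regions lay farther from gene starts than regions present in all 3 conditions, which was not tested. The strand was known for the hosts of 4250 gained regions with a single host gene, and their median distance from the annotated gene start was 36.2 kb, against 35.0 kb for naive-only regions, 39.4 kb for 72 h only regions and 21.0 kb for regions present in all 3 conditions. Within 10 kb of the start lay 18.4% of gained regions (17.2 to 19.6%), 21.1% of naive-only regions (20.3 to 21.9%) and 33.5% of those present in all 3 conditions (32.2 to 34.8%). With the gene cut into 10 equal bins from start to end, bin 1 held 10.8% of gained regions (9.88 to 11.8%) and bin 10 held 6.99% (6.24 to 7.80%). Regions within 1 kb of the gene ends were left out by the rule in all classes. A promoter window was overlapped by 2.12% of gained regions and 1.32% of naive-only regions (1.12 to 1.54%). The share was 1.41% for 72 h only regions (1.15 to 1.70%) and 19.1% for regions present in all 3 conditions (18.1 to 20.1%). Any overlap with the window was counted, so the start itself need not lie under the region. Long non-coding RNA genes held the middle of 275 gained regions (5.12%, 4.55 to 5.74%) and of 6.09% of naive-only regions (5.67 to 6.53%).

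**Figure D5:**
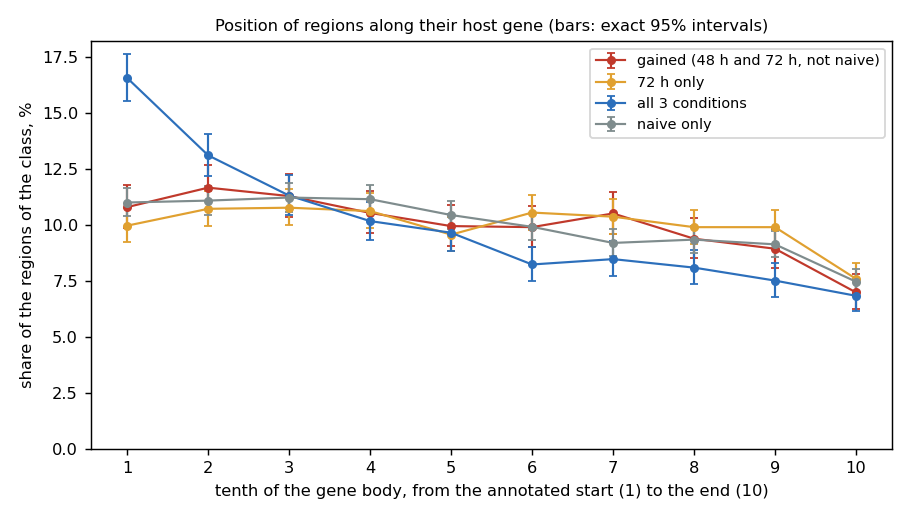
Share of the regions of each class (vertical axis, %) in each of 10 equal bins of the host gene, from its annotated start to its end, with exact 95% intervals. Gained regions run from 10.8% in bin 1 to 6.99% in bin 10, near the naive-only and 72 h only regions, while regions present in all 3 conditions are most frequent in bin 1.

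Gained regions were spaced at a median of 36.0 kb from the next gained region inside a gene, and 1451 (27.0%, 25.8 to 28.2%) had another within 10 kb. The share within 10 kb was 26.8% for 72 h only regions and 26.7% for regions present in all 3 conditions, and 53.1% for naive-only regions, of which there were 11938. Linked at 10 kb, 656 runs held 2 or more gained regions, with 20 runs of 4 and 3 of 5. The runs of 5, named after their values were seen, lay in Ptpn5 (15.7 kb), Atxn1 (17.4 kb) and Cdk6 (18.4 kb), with highest 72 h scores of 257, 85 and 224. The nearest naive peak was a median of 9.23 kb away, 51.8% of gained regions (50.4 to 53.1%) had 1 within 10 kb and 367 (6.83%, 6.17 to 7.54%) within 500 bp, against 8.28% (7.67 to 8.93%) of 72 h only regions.

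Of the 10674 regions of the gained pattern, 50.3% (49.4 to 51.3%) lay inside genes, 40.5% between genes and 9.15% near gene ends. Of the naive-only regions 50.9% (50.3 to 51.6%) lay inside genes, and of the 72 h only regions 51.1% (50.3 to 51.9%). Of the regions present in all 3 conditions 30.2% (29.5 to 30.8%) did, and 46.5% lay near gene ends.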

How the data were processed

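ATAC-seq peak lists of naive CD4 T cells and of Th17 cultures at 48 h and 72 h were analysed, 1 list for each condition with 2 libraries. MACS2 2.2.6, Bowtie2 2.3.4.1, SAMtools 1.9 and deepTools are listed, per the submitters' processing notes, with the builds GRCm38 and mm10. The sources used here do not give whether libraries were pooled or which thresholds were used to call peaks. The files have no header, and other columns than position, name and score were not used. Peak positions, read as BED intervals counted from 0, and a whole-number peak score in the 48 h and 72 h lists are the values the authors deposited. Scores were used within a list. Read depth is unknown, so no count test was run and no p-value is given. Reading dropped 1 naive line that held no values.

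Peaks sharing at least 1 bp were merged, and region middles were placed on 21900 protein-coding genes of RefSeq GRCm38.p6. Coordinates are 1-based. RefSeq promoter windows (32851) gave strands and sequences. Motifs were searched as letters on both strands. Shares have exact Clopper-Pearson 95% intervals, which cover counting error only. The code was tested on simulated peaks. Python 3.11.15, numpy 2.4.6, pandas 2.3.3, scipy 1.17.1 and matplotlib 3.10.9 were used. The members, the 20 gene lists and the named genes were chosen with earlier results of these data known. The text names the 4 genes of each list with most members, the 12 genes with most members, the 6 densest, the 6 without a naive-only region, the 12 strongest members, the members in Th17 lineage genes and the regions at the 1 kb limit; other genes were named after their values were seen. Some genes of the lists are not reported here by name. Alternatives changed the overlap, the merging gap, the distance to gene ends, the peaks kept and the distance to naive peaks.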

Additional observations from a re-analysis of the deposited data

How the results depend on the processing

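No paired analysis was possible because 1 list per condition was analysed and no result comes from a test, and no replicate could be left out for the same reason. The 8 planned settings kept the number of gained regions inside genes within 1.5 times of 5372 except where peaks were dropped by strength. It was 1987 when only 48 h and 72 h peaks at or above their median score were kept, in 1534 host genes, and 2278 with peaks at or above the median width, in 1716 host genes. With the score filter the Th17 lineage share was 17.6%, beside 7.24% over all genes, 12.9% of members had another within 10 kb, and by construction 100% reached the median 72 h score. With the width filter 47.9% of the gained class lay inside genes, 85.2% reached the median 72 h score and 13.1% had another member within 10 kb. With lists of equal length, 69.2% of members were wider at 72 h, 68.4% reached the median score and 24.96% had another within 10 kb. Larger distances to gene ends of 2.5 and 5 kb left 46.5% and 42.7% of the gained class inside genes, by construction, and at 5 kb 62.8% of members reached the median score and 28.6% had another within 10 kb. That spacing share was 23.3% with peaks up to 200 bp apart merged and 25.8% without members that had a naive peak within 500 bp. The AP-1 share under gained regions ran from 20.6% with any overlap of region and window to 48.1% (13 of 27 windows) with the score filter. The planned motif windows centred on all regions were not run, because no genome sequence was used here. Of 664 counts for 83 named genes, 176 moved by over 1.5 times, and of 152 shares for the other 19 lists, 21 moved outside their interval. Of the 12 strongest members, 9 to 12 were kept under each setting. Presence in 1 list limits all of this: depth is unknown and the spread between cultures was not measured.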
